A study of Solenopsis invicta with 64 samples.

Results

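A group of 213 genes that are moderately expressed in the ovary and far lower in the brain of monogyne animals was described in the red imported fire ant, Solenopsis invicta. The group was drawn from the 15512 genes with LOC symbols. Each count was divided by the library total and scaled to CPM, the count per 1 M counts of the library. A gene entered with a monogyne ovary mean of 10 to under 100 CPM, and with that mean plus 0.5 at least 16 times the monogyne brain mean plus 0.5. Levels in the monogyne libraries thus chose the genes, and they are given here as a description only.

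The study sequenced RNA from the brain and the ovary of 32 winged queens (gynes) that had not yet mated and were taken in the field as mating flights began. Of the animals, 8 came from polygyne colonies with genotype Sb/Sb, 8 from polygyne colonies with SB/Sb, 8 from polygyne colonies with SB/SB, and 8 from monogyne colonies with SB/SB. Each library came from 1 brain or 1 ovary of 1 reproductively mature animal, and the 2 tissues went through different extraction kits, so kit and tissue cannot be told apart. The labels name no agent or treatment. They do not say which animals share a colony, so p-values measure the spread between the animals as labelled.

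A monogyne colony has a single laying queen and a polygyne colony has several. The letters SB and Sb name alternative forms of a supergene, linked genes on chromosome 16 that pass on together, and the Sb form is known from polygyne colonies. An ant ovary is made of tubes in which germ cells give rise to oocytes and to nurse cells, which load the growing egg with RNA and protein. Follicle cells surround the egg and make its shell, and yolk protein enters the oocyte through a receptor on its surface.

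The used ovaries held 10.1 to 22.6 M counts and the brains 9.46 to 26.95 M. Animal 104D (polygyne, SB/SB) gave an ovary library of 73573 counts, 16 of them in the 213 genes, which is left out unless it is named. The tissue labels were checked on the vitellogenin receptor gene LOC105200757, which takes up yolk, and the odorant-binding protein gene LOC105203994. The receptor had 11.5 to 703 CPM in the used ovaries, against 0 to 15.0 CPM in the brains. The odorant-binding protein gene had at most 6.497 CPM in those ovaries, against 776 to 2515 CPM in the brains.

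Of the 213 genes, 187 had a chromosome in the gene table and 26 did not. The table called 180 protein-coding, 5 lncRNA, 1 a pseudogene and 1 another RNA. It gave a name beyond the symbol to 1 member, LOC105195645 on chromosome 4, which is CYP6A14, a cytochrome P450. Cytochromes P450 are known in insects for breaking down foreign compounds and hormones. The other members are described by symbol, since no product name was at hand.

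Monogyne ovary means of the members ran from 10.1 CPM in LOC105199993 to 99.6 CPM in LOC105198844. At the lower limit, LOC105196037 at 10.2 CPM was also inside, and LOC105200896 at 9.81 CPM and LOC105200033 at 9.74 CPM lay outside. At the upper limit LOC105196883 at 95.5 CPM was inside, and LOC105203917 at 100.03 CPM and LOC105207462 at 100.3 CPM were outside. On the ratio, LOC105193720 at 16.0162 and LOC105195987 at 16.04 were inside, and LOC105198185 at 15.9 and LOC105205502 at 15.8 outside.

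In polygyne animals, which took no part in the choice, the ovary stood above the brain for every member. In 23 animals with both libraries, 213 of 213 members were higher in the ovary (edgeR quasi-likelihood test with the animal as a block, Benjamini-Hochberg adjusted p at most 0.00178). Over all genes tested, 42.9% were higher in the ovary. Because the rule chose members for this same difference in monogyne animals, the count describes its recurrence. Only 99 of the 213 passed the low-count filter in brains alone. The median difference was 6.93 on the log2 scale over the members and 0.19 over all genes. In 24 members no read was counted in those brains; with these at a lower bound set by 3 counts over the 23 brains, the median was 6.93.

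The widest ratios belonged to LOC105198308 on chromosome 12, LOC105193256 on chromosome 1, LOC105193212 on chromosome 10 and LOC105198846 on chromosome 15. LOC105198308 had 9.31 to 252 CPM over the polygyne ovaries and no count in any of 32 brains. LOC105193256 had 43.4 to 104 CPM in those ovaries and at most 0.217 CPM in a polygyne brain. LOC105193212 had 36.5 to 137 CPM in the ovaries, against at most 0.374 CPM in the brains. LOC105198846 had 73.6 to 175 CPM in the ovaries and reached 2.54 CPM in the brain of animal 107G. Ovary and brain did not overlap in any of these genes.

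The narrowest belonged to LOC105192897, LOC105198548, LOC105204717 and LOC105197185. LOC105198548 on chromosome 5 averaged 5.82, 6.84 and 5.38 CPM in Sb/Sb, SB/Sb and SB/SB ovaries, against 0.862, 1.42 and 1.17 CPM in the brains of these genotypes. Its difference of 1.74 on the log2 scale was the smallest among the members (SE 0.47, edgeR adjusted p = 0.00178, n = 23). LOC105204717 on chromosome 16 had 13.3 to 66.2 CPM in polygyne ovaries and up to 23.4 CPM in a brain, with a log2 difference of 2.73 (SE 0.34). LOC105192897 on chromosome 8 entered the group through 1 monogyne ovary, 240A, at 87.2 CPM; polygyne ovaries had at most 4.27 CPM.

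The factor of 16 held for 164 members in polygyne means and not for 49. For 125 members the lowest polygyne ovary stood above the highest polygyne brain. The highest polygyne brain was under 1 CPM for 63 members and at 10 CPM or more for 35.

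**Figure D1:**
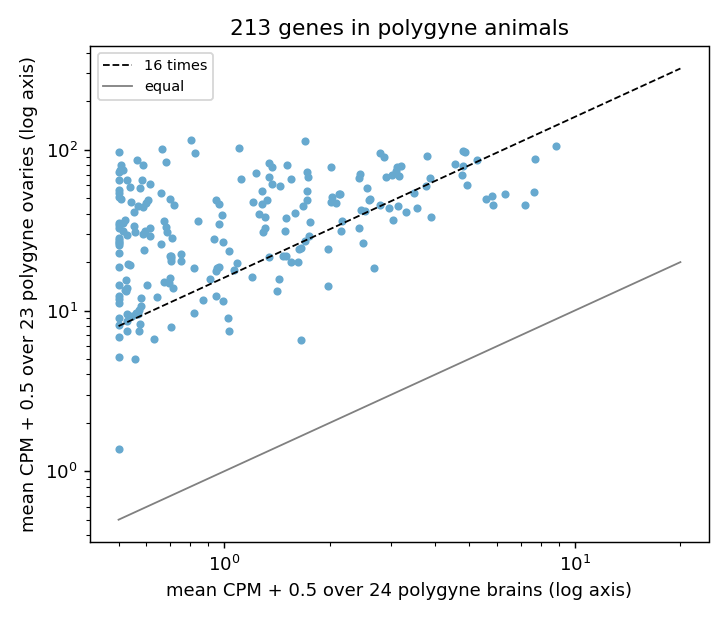
Mean level of each of the 213 genes over 23 polygyne ovaries (vertical, CPM + 0.5, log axis) against 24 polygyne brains (horizontal, CPM + 0.5, log axis). Each point is a gene; all lie above the line of equal levels, and 49 lie below the dashed line of 16 times.

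In the ovary, homozygous Sb animals differed from SB/SB animals in 59 genes of the group, mostly downward. All 213 members passed the low-count filter. In polygyne Sb/Sb against polygyne SB/SB ovaries 59 of 213 were called at an adjusted p under 0.05, 18 higher and 41 lower (edgeR quasi-likelihood test, Benjamini-Hochberg over 10797 genes, n = 8 and 7). The fit covered the 31 ovaries of all groups, so its spread also drew on the monogyne ovaries whose levels chose the members. Among all genes tested 14.1% were called, 8.21% higher and 5.88% lower. The members' share was 27.7%, with 8.45% higher and 19.2% lower. The median log2 difference was -0.47 over the members and 0.01 over all genes, and 155 members were negative.

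The 149 more abundant ovary-restricted genes, chosen by the same ratio at 100 CPM or more, had 4 higher and 55 lower. The 3918 other genes at 10 to under 100 CPM had 243 higher and 177 lower. Genes chosen by the mirror rule as brain-restricted, 479 in all, were mostly higher where they differed: of 326 tested in the ovary, 66 were higher and 5 lower in Sb/Sb. Their summed level was 2003 to 7880 CPM in Sb/Sb ovaries, 1712 to 4763 CPM in SB/Sb, 1452 to 4593 CPM in polygyne SB/SB and 1058 to 1850 CPM in monogyne SB/SB. Their part in the result was not tested. These are bulk ovaries, so fewer cells of a type and less RNA per cell cannot be told apart.

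The count depended on single ovaries and on the spread used. It was 33 without the Sb/Sb ovary of animal 15G, 36 without the Sb/Sb ovary of 16G and 39 without the SB/SB ovary of 20D. With only the compared genotypes in the fit, and so without monogyne and SB/Sb ovaries, it was 24, 10 higher and 14 lower. Shares over all genes in these fits are not given here, so the counts show only how the members' calls moved.

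**Figure D2:**
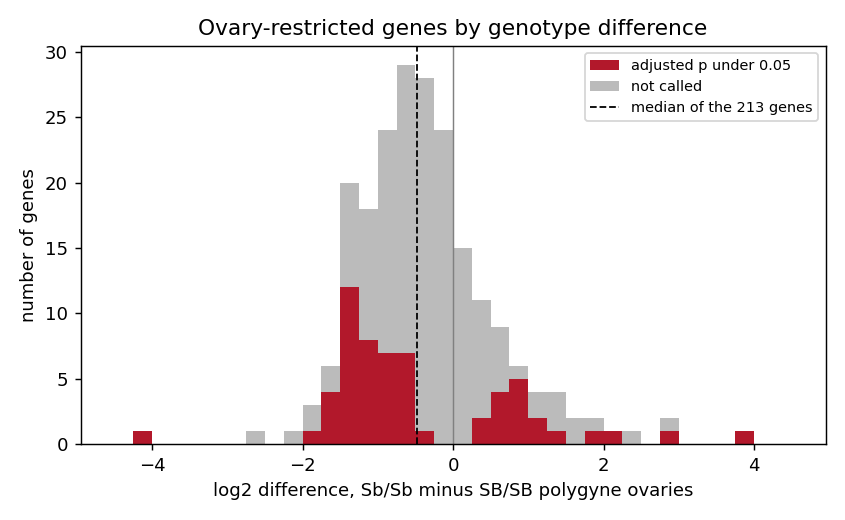
Number of members (vertical) by their log2 difference in Sb/Sb minus polygyne SB/SB ovaries (horizontal, bins of 0.25). Red bars are the 59 called members and grey bars the others; the dashed line marks the median of -0.47.

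The 18 members that rose in Sb/Sb ovaries did so by 1.28 to 14.9 times, with a median of 1.97. LOC105194887, on chromosome 16, had the smallest p. It had 30.3, 65.7 and 120 CPM as the lowest, median and highest Sb/Sb ovary and 12.9, 46.9 and 112 CPM in SB/Sb, against 9.04, 14.5 and 23.5 CPM in polygyne SB/SB and 9.63, 16.7 and 18.5 CPM in monogyne SB/SB. Every Sb/Sb ovary stood above every SB/SB ovary of either social form. The log2 difference between Sb/Sb and polygyne SB/SB was 2.17 (SE 0.34, edgeR adjusted p = 7.64e-05).

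LOC105201316, on chromosome 15, changed most. Its lowest, median and highest ovary had 32.7, 82.9 and 387 CPM in Sb/Sb and 18.8, 53.4 and 582 CPM in SB/Sb, against 1.85, 9.46 and 12.5 CPM in polygyne SB/SB. Neither Sb/Sb nor SB/Sb overlapped with polygyne SB/SB. The highest values came from ovary 19G in Sb/Sb and ovary 15A in SB/Sb. The log2 difference of Sb/Sb from SB/SB was 3.90 (SE 0.74, edgeR adjusted p = 0.000779), and 3.25 without ovary 19G.

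LOC105198308, on chromosome 12, had 52.8, 136 and 203 CPM in Sb/Sb, 57.0, 82.1 and 252 CPM in SB/Sb and 9.31, 34.2 and 53.4 CPM in polygyne SB/SB. The lowest Sb/Sb ovary fell just under the highest polygyne SB/SB ovary, and SB/Sb did not overlap with polygyne SB/SB. Monogyne SB/SB ovary 233A had 58.2 CPM, above the lowest Sb/Sb and the lowest SB/Sb ovary. The log2 difference of Sb/Sb from SB/SB was 1.95 (SE 0.36, edgeR adjusted p = 0.000601). LOC105193720, on chromosome 8, had 36.4, 122 and 310 CPM in Sb/Sb, 19.3, 74.7 and 417 CPM in SB/Sb and 3.22, 15.3 and 43.8 CPM in SB/SB, with overlap between Sb/Sb and SB/SB. It differed by 2.90 on the log2 scale (SE 0.68, adjusted p = 0.00501).

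The other named members that rose did so by less. LOC105204600, on chromosome 3, averaged 36.4 ± 9.995 CPM in Sb/Sb and 41.1 ± 6.25 CPM in SB/Sb (SD, n = 8 each), against 17.6 ± 8.43 CPM in SB/SB (SD, n = 7), a log2 difference of 0.99 for Sb/Sb. LOC105195702, on chromosome 4, averaged 139 ± 41.4 CPM in Sb/Sb, 116 ± 27.0 CPM in SB/Sb and 76.9 ± 13.3 CPM in SB/SB, with 0.78. LOC105193212 averaged 110 ± 20.2 CPM in Sb/Sb, 83.1 ± 14.3 CPM in SB/Sb and 62.0 ± 13.9 CPM in SB/SB, with 0.74. LOC105196730, which had no chromosome, averaged 105 ± 26.6 CPM in Sb/Sb, 91.7 ± 15.4 CPM in SB/Sb and 68.1 ± 8.59 CPM in SB/SB, with 0.54. Sb/Sb and SB/SB ovaries overlapped in all 4 of these genes.

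**Figure D3:**
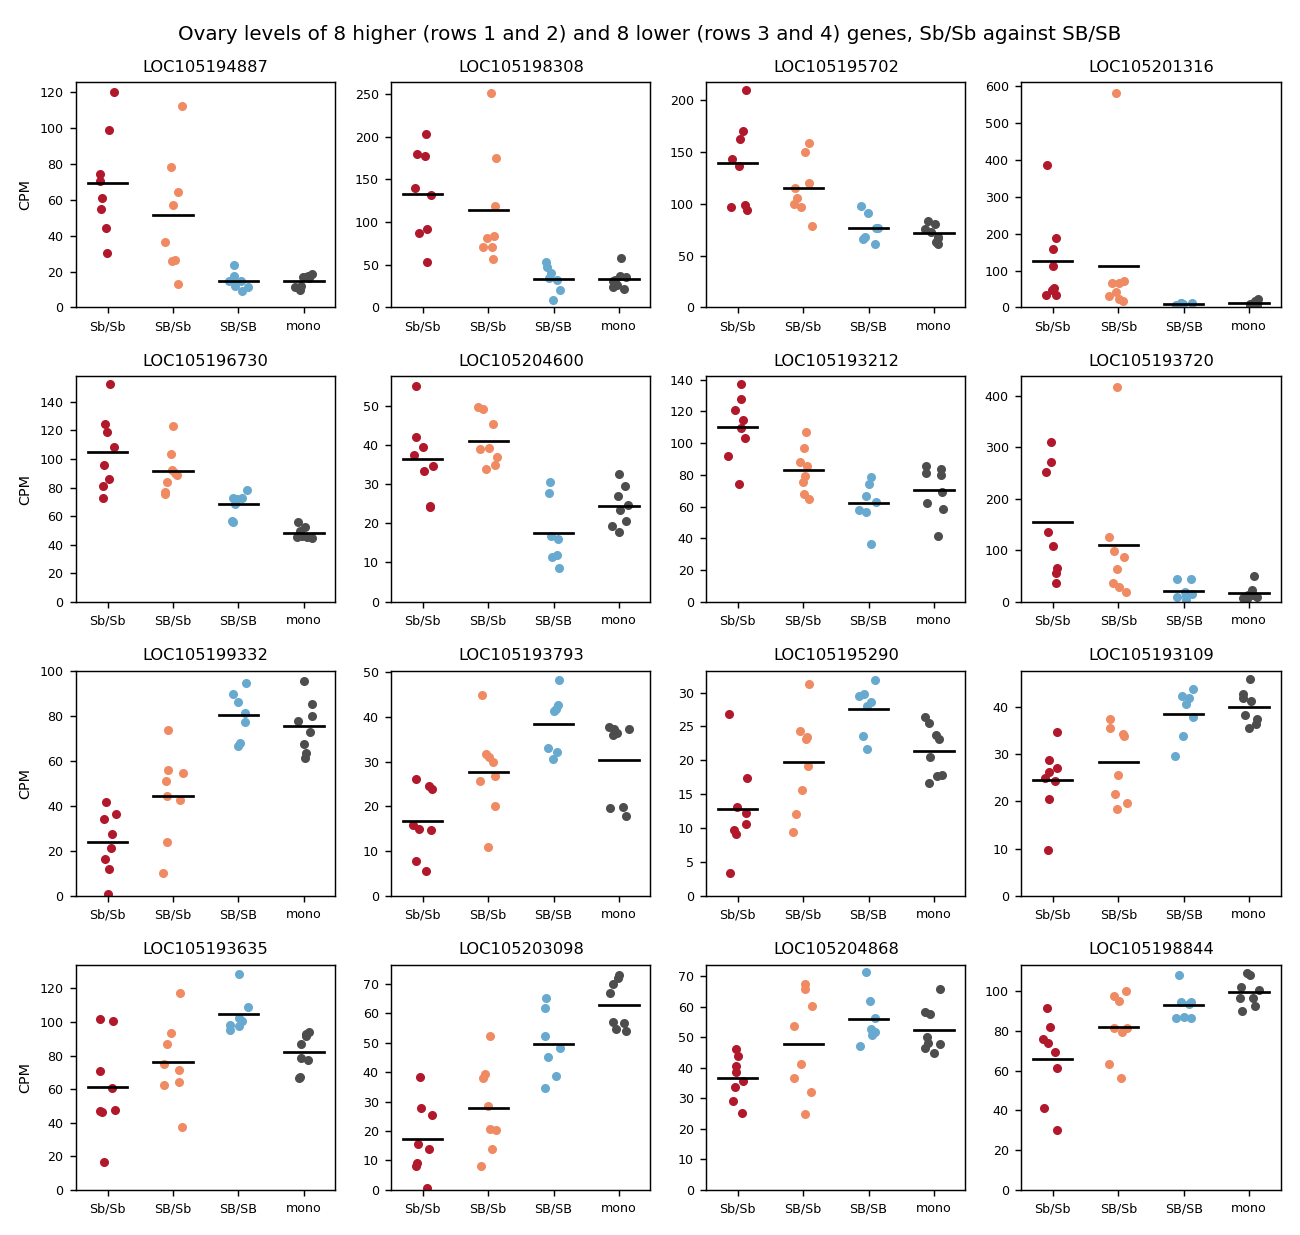
Ovary levels in CPM (vertical) of the 8 higher and 8 lower members with the smallest p in Sb/Sb against polygyne SB/SB ovaries. Points are single ovaries, black lines are means, and groups run from Sb/Sb through SB/Sb and polygyne SB/SB to monogyne SB/SB (mono); SB/Sb means lie between the homozygotes in all panels but LOC105204600.

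The 41 members that fell did so by 1.41 to 17.6 times, with a median of 2.26. LOC105199332, on chromosome 16, had 0.977, 24.4 and 41.7 CPM as the lowest, median and highest Sb/Sb ovary and 9.97, 47.8 and 73.6 CPM in SB/Sb, against 66.9, 81.3 and 94.6 CPM in polygyne SB/SB and 61.3, 75.2 and 95.5 CPM in monogyne SB/SB. All Sb/Sb ovaries lay below all SB/SB ovaries. The log2 difference of Sb/Sb from polygyne SB/SB was -1.87 (SE 0.38, edgeR adjusted p = 0.00155).

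LOC105193793, on chromosome 13, had 5.56, 15.4 and 26.0 CPM in Sb/Sb, 10.8, 28.3 and 44.9 CPM in SB/Sb and 30.7, 41.4 and 48.2 CPM in polygyne SB/SB. Sb/Sb and SB/SB did not overlap, and the log2 difference was -1.29 (SE 0.27, edgeR adjusted p = 0.00204). Monogyne SB/SB ovaries of this gene spanned 17.9 to 37.7 CPM and overlapped with both. LOC105204868, on chromosome 3, had 25.3, 37.0 and 45.9 CPM in Sb/Sb, 24.8, 47.4 and 67.4 CPM in SB/Sb and 47.2, 52.7 and 71.4 CPM in SB/SB. It too had no overlap between Sb/Sb and polygyne SB/SB, at a log2 difference of -0.68 (SE 0.17, adjusted p = 0.00929). The lowest monogyne SB/SB ovary of this gene, 240A, lay below the highest Sb/Sb ovary, 20I.

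LOC105203098, also on chromosome 16, had 0.706, 14.8 and 38.3 CPM in Sb/Sb, 8.12, 24.6 and 52.4 CPM in SB/Sb and 34.7, 48.3 and 65.4 CPM in SB/SB. The highest Sb/Sb ovary passed the lowest SB/SB ovary, and the log2 difference was -1.62 (SE 0.41, adjusted p = 0.00929). Its adjusted p was 0.057 with only these genotypes in the fit. LOC105195290 on chromosome 15 averaged 12.8 ± 6.91 CPM in Sb/Sb and 27.6 ± 3.60 CPM in SB/SB. LOC105193109 averaged 24.5 ± 7.25 CPM in Sb/Sb and 38.6 ± 5.15 CPM in SB/SB. These genes differed by -1.19 and -0.74 on the log2 scale, with overlap.

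LOC105193635, which like LOC105193109 had no chromosome, averaged 61.4 ± 28.9 CPM in Sb/Sb and 105 ± 11.4 CPM in SB/SB, a log2 difference of -0.87. LOC105198844, on chromosome 15, averaged 65.8 ± 20.8 CPM in Sb/Sb and 92.9 ± 7.67 CPM in SB/SB, a log2 difference of -0.58, and its adjusted p was 0.0591 with only these genotypes in the fit. The largest fall was in LOC105203696, on chromosome 3, which spread widely within genotypes. It had 0, 0.451 and 5.57 CPM in Sb/Sb, 0, 16.3 and 37.0 CPM in SB/Sb and 0.517, 8.40 and 64 CPM in SB/SB. The log2 difference was -4.14 (SE 1.24, edgeR adjusted p = 0.0248), and was -4.93 without the Sb/Sb ovary of 20I. The gene was no longer called without the Sb/Sb ovary of 15G, the SB/SB ovary of 19D or the SB/SB ovary of 20D (adjusted p = 0.0501, 0.0575 and 0.0565). It was also not called without 15A, 15G and 19G together (edgeR adjusted p = 0.0768).

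Groups without overlap were rare. Sb/Sb lay wholly above polygyne SB/SB in 2 members, where 2.03% of all genes did, and wholly below in 5, where 0.537% of all genes did. The 5 were LOC105199332, LOC105193793 and LOC105204868 and, outside the rule for named genes and chosen after their values were seen, LOC105193898 and LOC105197881. LOC105193898 had 0.919 to 58.3 CPM in Sb/Sb, against 62.1 to 99.4 CPM in SB/SB, and was called (adjusted p = 0.0382). LOC105197881 had 4.78 to 53.8 CPM in Sb/Sb, against 54.1 to 83.7 CPM in SB/SB, and was not called (adjusted p = 0.075).

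Heterozygotes lay between the homozygotes for most called members. The SB/Sb mean was between the Sb/Sb and SB/SB means in 17 of the 18 that rose and in 41 of the 41 that fell. The same ovaries chose these genes by the distance between homozygotes, which favours means in between, so this is a description only. Against SB/SB itself, 4 of 213 members were called in SB/Sb, all higher, where 1.66% of all genes were called and 1.53% were higher. They were LOC105204600 (log2 difference 1.18), LOC105194887 (1.75), LOC105201316 (3.68, or 2.29 without the SB/Sb ovary of 15A) and LOC105198308 (1.72), all of which also rose in Sb/Sb. The adjusted p-values in SB/Sb ran from 0.000818 to 0.00706. SB/Sb lay wholly above polygyne SB/SB in 3 members, where 0.769% of all genes did, and these were the same genes without LOC105194887. The comparisons share the SB/SB ovaries.

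Set against SB/Sb ovaries, Sb/Sb ovaries had 0 of 213 members called by edgeR and 1 by DESeq2, where 0.139% of all genes were called by edgeR. At an unadjusted p under 0.05 there were 24, against 224 of the 3918 other genes at 10 to under 100 CPM. The median log2 difference over the members was -0.25, against 0.01 over all genes. The member that DESeq2 called, which edgeR also called without the Sb/Sb ovary of 19G, was LOC105208008, named after its values were seen. It averaged 37.9 ± 16.1 CPM in Sb/Sb and 18.2 ± 3.11 CPM in SB/Sb ovaries, with a log2 difference of 1.00 (adjusted p = 0.0768).

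The fall was uneven from ovary to ovary. Counting members at less than 50% of their monogyne ovary mean, the Sb/Sb ovaries had 25, 69 and 149 as the lowest, median and highest, SB/Sb ovaries 6, 40 and 138, polygyne SB/SB ovaries 6, 20 and 48 and monogyne SB/SB ovaries 4, 13.5 and 17. Monogyne ovaries were scored against their own mean, which also chose the members, so their low counts are partly built in. The Sb/Sb ovary of 19G with 149, the SB/Sb ovary of 15A with 138 and the Sb/Sb ovary of 15G with 99 stood highest. Genotypes overlapped, and the Sb/Sb ovary of 30G had 25. Without 15A, 15G and 19G the medians were 58 in Sb/Sb, 29 in SB/Sb and 20 in polygyne SB/SB.

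Ovary 19G had the lowest level of all 31 ovaries for 125 members. Its median member had 8.52 CPM, against 13.8 CPM in 15A, 21.7 CPM in 15G and 33.0 to 41.2 CPM in monogyne ovaries. In 19G 82.6% of the abundant ovary-restricted genes were also under 50% of their monogyne mean, and 19.8% of the other genes at the same level. The 41 members called lower were under 50% in 41 cases in 19G, 38 in 15A and 30 in 15G, but in 2 in 30G. That list came from a comparison that included 19G, 15G and 30G, so these counts are a description only. The vitellogenin receptor had 11.5 CPM in 19G and 22.4 CPM in 15A, below all other used ovaries, and 246 CPM in 15G. The brain-restricted sum was 6103 CPM in 19G, 4201 CPM in 15A and 7880 CPM in 15G, and its part in these levels was not tested.

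Summed over the members, levels of the groups lay closer together. It was 8228 ± 794 CPM in Sb/Sb, 8669 ± 908 CPM in SB/Sb, 9052 ± 625.4 CPM in polygyne SB/SB and 8961 ± 564 CPM in monogyne SB/SB (SD, n = 8, 8, 7 and 8). Single members can weigh heavily in such a sum. LOC105203728 gave 1471 of 7021 CPM in 19G, and LOC105201316 gave 582 of 7294 CPM in 15A. Without 15A, 15G and 19G the count of called members in Sb/Sb against SB/SB was 45, 13 higher and 32 lower. Of these, 42 were among the 59. The share of all genes called in that fit is not given here.

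**Figure D4:**
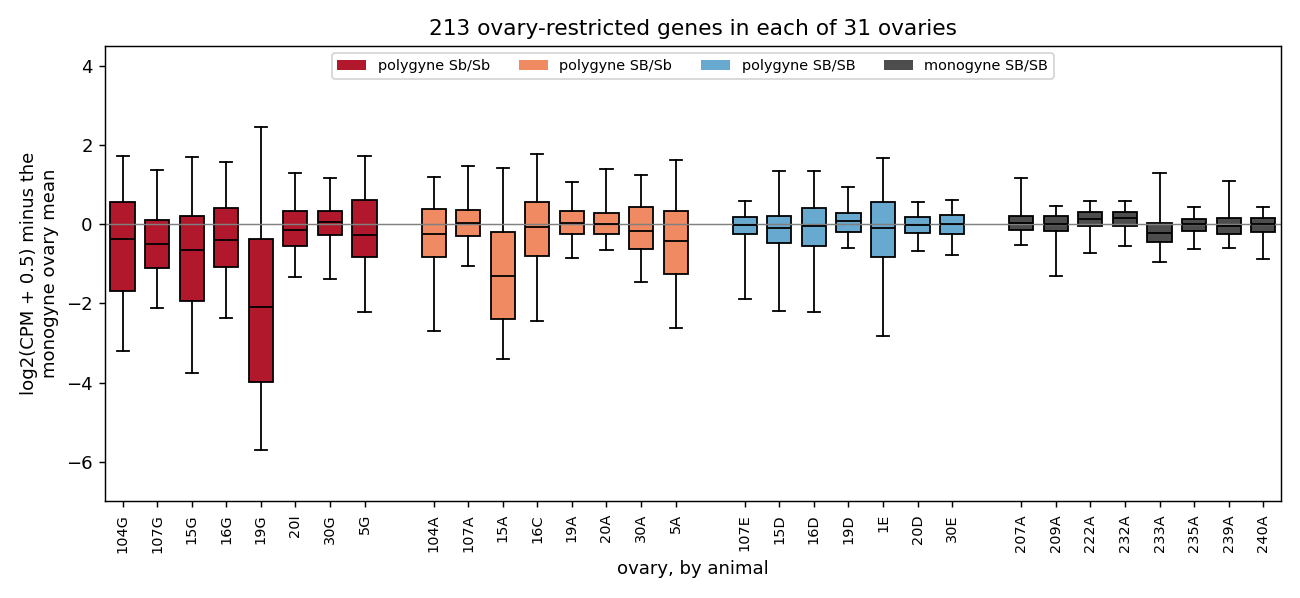
Level of the 213 genes in each of 31 ovaries, as log2(CPM + 0.5) minus its mean over the monogyne ovaries (vertical). Boxes span the quartiles with the median as a line and whiskers run over the central 90% of genes; 19G and 15A sit lowest, and monogyne ovaries lie near 0 by construction.

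Some members varied far more than the group. LOC105195989 and LOC105196037, both without a chromosome, were either on or off in an ovary. LOC105195989 had 24.98 to 83.4 CPM in 15 ovaries and at most 0.168 CPM, 7 counts in all, in the other 16. LOC105196037 had 5.90 to 24.6 CPM in the same 15 ovaries and no count in the other 16. No level lay between these ranges for either gene. They were on in 4 of 8 Sb/Sb, 4 of 8 SB/Sb, 3 of 7 polygyne SB/SB and 4 of 8 monogyne SB/SB ovaries.

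Among all LOC genes these were the only 2 with that split of the ovaries at 0.5 CPM. In brains, LOC105195989 had counts in 8 of the 15 animals with an on ovary, 135 counts in all, and in 2 of the 16 with an off ovary, 2 counts in all. LOC105196037 had counts in the brains of 1 animal with an on ovary and 4 with an off ovary, 6 and 84 counts. Brain levels were at most 2.74 CPM for LOC105195989 and 4.42 CPM for LOC105196037.

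A second set of members was absent from many ovaries of all groups. LOC105193899, LOC105200037 and LOC105204969 were among the 8 most variable, and LOC105199993 was added after its values were seen. All 4 were under 0.5 CPM in 9 ovaries, 7 polygyne and 2 monogyne, and none was in 16 ovaries. LOC105193899 on chromosome 6 had 0, 9.60 and 53.0 CPM as the lowest, median and highest Sb/Sb ovary, 0, 20.9 and 34.6 CPM in SB/Sb, 0, 3.72 and 20.6 CPM in polygyne SB/SB and 0, 3.52 and 78.6 CPM in monogyne SB/SB. LOC105200037 on chromosome 5 reached 51.1 CPM, in ovary 19G among polygyne animals. LOC105204969 on chromosome 16 reached 27.3 CPM in a polygyne and 96.5 CPM in a monogyne ovary, and had no count in any brain. None of these genes was called between genotypes. They are not the only members absent from many ovaries. LOC105192897 was under 0.5 CPM in 18 ovaries and LOC105203848, outside the rule for named genes, in 15, with such ovaries in every group.

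LOC105203728, on chromosome 1, was highest in the ovary in which most members were lowest. It had 1471 CPM in 19G and 315 CPM in 15A, against a monogyne range of 51.1 to 198 CPM. It had 0.878 CPM in another Sb/Sb ovary, 104G, and 0.323 CPM in SB/SB ovary 1E. LOC105201619, on chromosome 11, had 1.51, 5.69 and 138 CPM as the lowest, median and highest Sb/Sb ovary, 2.48, 72.8 and 329 CPM in SB/Sb and 1.34, 93.3 and 289 CPM in polygyne SB/SB. Neither was called between Sb/Sb and SB/SB (adjusted p = 0.114 and 0.175).

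The steadiest members were LOC105195010, LOC105203579, LOC105204529 and LOC105199078, with an SD of 0.26 to 0.28 of log2(CPM + 0.5) over 23 polygyne ovaries. LOC105195010, on chromosome 2, averaged 67.7 ± 16.8 CPM in Sb/Sb, 66.9 ± 5.38 CPM in SB/Sb and 67.8 ± 8.90 CPM in SB/SB. LOC105199078, also on chromosome 2, averaged 88.6 ± 16.3 CPM in Sb/Sb, 77.8 ± 9.90 CPM in SB/Sb and 65.3 ± 8.29 CPM in SB/SB and was called higher in Sb/Sb by 1.28 times (adjusted p = 0.0315). That call was lost without any 1 of the Sb/Sb ovaries of 107G and 16G or the SB/SB ovaries of 107E and 1E, at adjusted p-values of 0.0505 to 0.0648, with only these genotypes in the fit (0.0751) and without 15A, 15G and 19G together (0.0527). Of all members, 168 were at 0.5 CPM or more in all 31 ovaries.

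**Figure D5:**
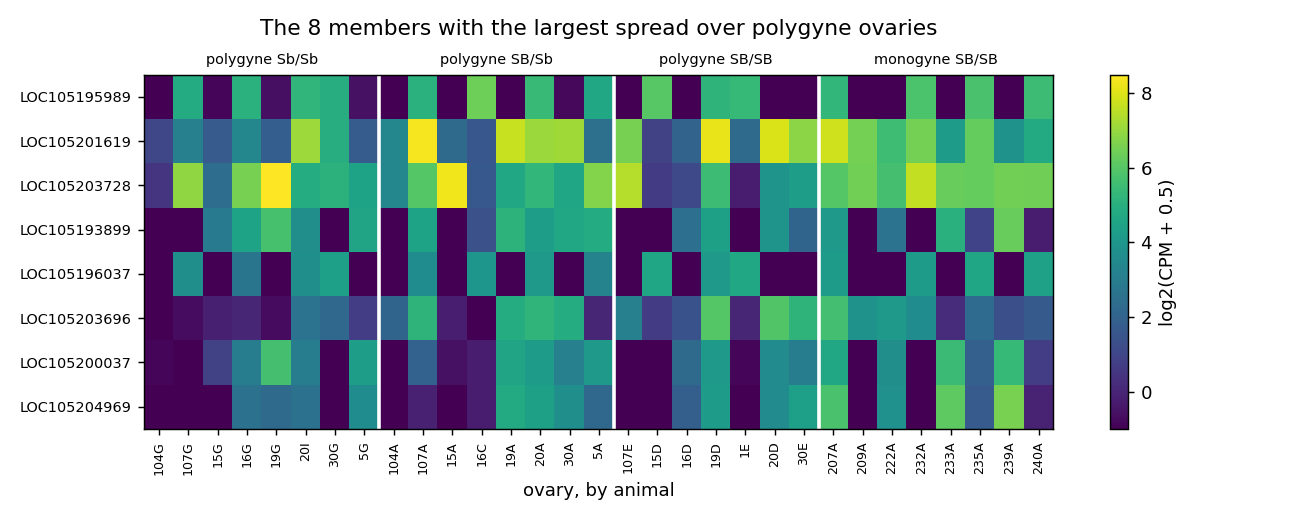
Level of the 8 members with the largest spread over polygyne ovaries, one per line, in 31 ovaries as columns, coloured by log2(CPM + 0.5). LOC105195989 and LOC105196037 are dark in the same 16 ovaries, in every group.

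Social form was not tested, since monogyne levels chose the genes. The polygyne SB/SB ovary mean over the monogyne mean had a median of -0.07 on the log2 scale over the members and 0.07 over all genes, and 20 of the 213 members (9.39%) differed by more than 2-fold, near the 1117 of 10797 genes (10.3%) that did. Polygyne SB/SB lay wholly above monogyne in 5 members and wholly below in 0, where 0.843% and 0.222% of all genes did. LOC105195106, the member with the highest ratio, averaged 87.3 CPM in polygyne SB/SB and 26.7 CPM in monogyne SB/SB, with 237 CPM in ovary 16D and 164 CPM in 1E.

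In the brain few members had enough reads to test. Of the 213, 99 passed the filter and 114 did not, so counts cover less than the group. When Sb/Sb brains were set against SB/SB brains, 1 of 99 was called, where 0.953% of all genes were. At an unadjusted p under 0.05 there were 10 of 99, against 738 of 3912 other genes at 10 to under 100 CPM. The called member was LOC105201520, on chromosome 16. It had 0, 2.501 and 40.6 CPM as the lowest, median and highest Sb/Sb brain and 0, 6.10 and 21.5 CPM in SB/Sb. No polygyne SB/SB brain had a count, and monogyne SB/SB brains had up to 1.81 CPM, in 232A. Reads were found in 4 of 8 Sb/Sb and 5 of 8 SB/Sb brains.

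The mean of LOC105201520 in Sb/Sb brains was at least 621-fold higher (edgeR adjusted p = 0.0273). The floor was 3 counts over the 8 polygyne SB/SB brains, with counting error only. The gene reached the low-count filter through brains that carried Sb, so this call is given as a description only. It was not called without the Sb/Sb brain of 20I (adjusted p = 0.052) or the SB/SB brain of 19D (0.0533). Without the SB/SB brain of 20D, 2 members were called, this gene and LOC105199875. In the ovary the same gene averaged 50.8 ± 29.9 CPM in Sb/Sb, 56.9 ± 20.9 CPM in SB/Sb and 54.1 ± 6.32 CPM in SB/SB and was not called.

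SB/Sb against SB/SB brains had 0 called members by edgeR and 1 by DESeq2, again LOC105201520, with 8 at an unadjusted p under 0.05 and 0.252% of all genes called by edgeR. Sb/Sb against SB/Sb brains had 0 by both tools, with 2 at an unadjusted p under 0.05 and 0.159% of all genes called. Of 3912 other genes at 10 to under 100 CPM, 143 and 462 were under 0.05 unadjusted in these brain comparisons, in that order. The difference between ovary and brain differed between Sb/Sb and SB/SB animals for 0 members by edgeR, where 3.11% of all genes were called. At an unadjusted p under 0.05 there were 17 of 213, against 704 of 3917 other genes at 10 to under 100 CPM. By DESeq2 9 of 213 members were called (2 higher, 7 lower), where 11.7% of all genes were, and 10 in a fit without the animal as a block, where 2.71% of all genes were.

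LOC105201520 was at 10 CPM or more in 6 polygyne brains, the most of any member, with 40.6 CPM in the Sb/Sb brain of 5G and 39.2 CPM in that of 20I. LOC105198311, on chromosome 12, had 194 CPM in the SB/SB brain of 16D and at most 3.60 CPM in the other polygyne brains. Its ovary level in 16D was 187 CPM, also the highest among SB/SB ovaries. LOC105201316 had 80.2 CPM in the Sb/Sb brain of 15G and 28.3 CPM in that of 20I. CYP6A14 (LOC105195645) had 36.0 CPM in the Sb/Sb brain of 16G, 30.9 CPM in the SB/Sb brain of 5A and 20.9 CPM in the SB/SB brain of 15D. In ovaries CYP6A14 had 1.19, 30.1 and 310 CPM as the lowest, median and highest in Sb/Sb, 1.66, 52.6 and 114 CPM in SB/Sb and 5.75, 18.1 and 60.9 CPM in polygyne SB/SB, all overlapping.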

How the data were processed

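Brain and ovary RNA of 32 animals was analysed as 64 libraries. Per the labels' protocols, libraries were made by Smart-seq2, with amplification by PCR and no molecular identifiers. Per the submitters' processing notes, reads were handled with Trimmomatic 0.32, STAR 2.5.3a and featureCounts; its version, the genome build and the annotation are not given in the sources used here. As counted by the authors, the deposited files hold raw counts per gene, whole and without normalization. The 198 transfer RNA rows, 0.000177% of all counts, were left out.

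The 213 members and all lists were chosen with earlier results of these data known. Levels are CPM of the library total. Tests used edgeR 4.0.16 in R 4.3.3 with TMM, filterByExpr (minimum count 10), 1 coefficient per group over 31 ovaries or 32 brains, and adjustment over all genes tested at 0.05; SE is the size of the log2 difference over the root of F. Ovary and brain were compared with the animal as a block. DESeq2 1.42.0, RLE scaling, no filter, 104D kept, fewer groups and left-out libraries were alternatives; leaving out libraries other than 104D was chosen after seeing the data. The fitting was tested on simulated data.

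Named genes are the 8 members with the smallest p per direction in an ovary comparison (4 in a brain one), the 8 most and 4 least variable over polygyne ovaries, the 4 highest in a single brain, 4 at each end of the polygyne ratio, 2 on each side of each limit, and the one with a synonym. Chromosomes and gene order come from a table of the assembly UNIL_Sinv_3.0. It has no product names, so the 13 lists of markers and pathways, set by product name, could be matched only through 9 synonyms and are not reported beyond the 2 genes that checked the tissue.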

Additional observations from a re-analysis of the deposited data

Results flagged for a closer look

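For the named members and for sums, 188 groups of libraries were looked at for 1 library far from the others of its group, by Dixon's test; 35 groups (18.6%) had one, where chance gives about 5%. Some of these members were named for a large spread or a high single brain, which favours such libraries. The share is therefore not comparable with 5%. Values below are CPM of the library that stood apart.

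In Sb/Sb ovaries, 19G stood apart at the top for LOC105203728 (1471), LOC105201316 (387), LOC105195645 (310), LOC105193899 (53.0), LOC105200037 (51.1) and LOC105198548 (22.4). Ovary 20I stood apart for LOC105201619 (138) and 5G for LOC105204969 (11.8). In SB/Sb ovaries it was 15A for LOC105201316 (582), LOC105193720 (417), LOC105203728 (315) and LOC105192897 (3.64). So the highest ovary of LOC105203728 and LOC105201316 in Sb/Sb and in SB/Sb was one in which most members were low.

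In polygyne SB/SB ovaries, 16D stood apart for LOC105198311 (187) and LOC105198844 (108), 107E for LOC105203728 (172), 1E for LOC105193635 (128) and 30E for LOC105192897 (3.28). In monogyne ovaries, 207A stood apart for LOC105201619 (222) and LOC105203696 (49.8), 232A for LOC105203728 (198) and LOC105195987 (117), 233A for LOC105198308 (58.2) and LOC105193720 (49.8), 239A for LOC105193899 (78.6) and 240A for LOC105192897 (87.2).

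In brains, LOC105198311 stood apart in 15G of Sb/Sb (0.978), 5A of SB/Sb (1.57) and 16D of SB/SB (194). LOC105195645 stood apart in 16G of Sb/Sb (36.0), 5A of SB/Sb (30.9) and 15D of SB/SB (20.9). LOC105201316 stood apart in 15G of Sb/Sb (80.2) and in monogyne 235A (0.691), and LOC105201520 in monogyne 232A (1.81). The summed level of the members was 223 in the monogyne brain of 207A, against 116 to 148 in the other monogyne brains.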

How the results depend on the processing

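For Sb/Sb against SB/SB ovaries, the 59 called members became 24 with only those groups in the fit and 25 with title number as a replicate block, 23 of them among the 59. Among the members named, that block lost LOC105193109 (adjusted p = 0.0727), LOC105203098 (0.0502), LOC105204717 (0.0649), LOC105197185 (0.167) and LOC105199078 (0.0776). Leaving out 1 library at a time gave 33 to 83. Other settings gave 45 to 76. For SB/Sb against SB/SB ovaries, DESeq2 called 7 and leaving out 1 library gave 4 to 6. With the replicate block it was 3, and LOC105194887 and LOC105198308 were lost (adjusted p = 0.127 and 0.121). For Sb/Sb against SB/Sb ovaries, DESeq2 called 1, leaving out 15A, 15G and 19G together called 1, and leaving out 1 library gave 0 to 1. In Sb/Sb against SB/SB brains, DESeq2 called 3, no filter 2 and the replicate block 0 (LOC105201520 adjusted p = 0.406), and leaving out 1 library gave 0 to 2. In SB/Sb against SB/SB brains, DESeq2 called 1. For the tissue difference between Sb/Sb and SB/SB, DESeq2 called 9 and a fit without the animal block 10. A ratio of at least 8 gave 385 members and one of 32 gave 105; leaving out 1 monogyne animal gave 210 to 227. Beside fewer samples or fewer genes, the cause was not tested. Title numbers did not meet the bar for pairing, a correlation of deviations over 0.1 in every same-number pair. Of the ovary pairs, 5 of 6 were over it between Sb/Sb and SB/SB (-0.246 to 0.521), 5 of 6 between SB/Sb and SB/SB (0.0843 to 0.630) and 4 of 8 between Sb/Sb and SB/Sb (-0.308 to 0.592). An ovary correlated best with its own number in 14 of 40 pairings with another genotype, a hint from the data and not the design. No named member reversed. Libraries of 10 M counts or more read a member at 10 CPM well; brain levels near 0 are limited by depth.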

Other observations

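Members were spread over all 16 chromosomes of the gene table. Chromosome 6 held most, 21 of the 187 placed members (11.2%, against 7.33% of the placed LOC genes). Chromosome 16 held 12 (6.42%, against 8.22%). Of those 12, the comparison of Sb/Sb with SB/SB ovaries called 6, 1 higher and 5 lower, where 23.3% of all tested genes of that chromosome were called.

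Placed members no more than 2 places apart in gene order formed 16 runs with 34 members. In 2 runs both genes were called lower in Sb/Sb ovaries. LOC105202250 averaged 19.3 CPM in Sb/Sb and 36.5 CPM in SB/SB, and LOC105202252 averaged 47.1 CPM in Sb/Sb and 62.9 CPM in SB/SB, both on chromosome 13. LOC105193738 averaged 56.6 CPM in Sb/Sb and 82.5 CPM in SB/SB, and LOC105193732 averaged 26.9 CPM in Sb/Sb and 64.4 CPM in SB/SB, both on chromosome 6. These pairs were picked after their values were seen, and whether neighbours share reads was not tested.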
